A study of Homo sapiens with 12 samples.

Results

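The genes described here are the D cyclins (CCND1, CCND2, CCND3), their kinases CDK4 and CDK6, and the CDK inhibitors CDKN1A, CDKN1B, CDKN1C, CDKN2C and CDKN2D. Probe sets were taken where the platform annotation held exactly 1 symbol and that symbol was one of these 10 genes. This gave 25 of the 54675 probe sets on the array and 9 of 19775 measured genes. CDKN2C had no such probe set in the annotation used and was not analysed here. The samples came from HPB-ALL and KOPT-K1, human leukaemia lines of T-cell acute lymphoblastic type in which NOTCH1 is active. Cultures of each of the 2 lines received for 24 hours either the vehicle DMSO or 20 µM SAHM1, a stapled peptide derived from the co-activator mastermind-like and designed to block the NOTCH transcription complex. Each of the 4 groups had 3 cultures in multi-well plates, with 1 array per culture, for 12 arrays in all. Each line stands for 1 leukaemia, so the spread between cultures says nothing about other leukaemias.

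D cyclins are the regulatory subunits of CDK4 and CDK6. The active kinases phosphorylate the retinoblastoma protein, which releases E2F factors and lets cells leave G1. CDKN2C and CDKN2D belong to the INK4 inhibitors, which bind CDK4 and CDK6 directly, while CDKN1A (p21), CDKN1B (p27) and CDKN1C (p57) belong to the CIP/KIP inhibitors, which also bind cyclin-CDK2 complexes. In T-lineage leukaemia, NOTCH signalling is known to sustain D cyclin kinase activity, and its loss is known to slow passage through G1 in many lines. The comparison asked whether SAHM1 changed the mRNAs of this machinery.

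CDK4 and CDKN1B were the members with 1 probe set each that changed in HPB-ALL, in opposite directions. Promoter sequence is shown for these 2 because their changes are described below. Of the 10 genes, 7 matched the RefSeq promoter table (GRCh38.p14), with 12 start sites in all. The 250 bases before each start site were searched on both strands. CCND1, CCND2 and CDKN1C had no entry and were not searched. The CDK4 window lies at chr12:57752311-57752560 on the minus strand and the CDKN1B window at chr12:12717118-12717367 on the plus strand. Each is printed 5′ to 3′ on the gene's own strand and ends at the base before the start site. Capitals mark the palindromic E-box CACGTG, the site of MYC-MAX dimers, in CDK4, and CCAAT or its reverse complement, the core of NF-Y sites, in CDKN1B.
CDK4: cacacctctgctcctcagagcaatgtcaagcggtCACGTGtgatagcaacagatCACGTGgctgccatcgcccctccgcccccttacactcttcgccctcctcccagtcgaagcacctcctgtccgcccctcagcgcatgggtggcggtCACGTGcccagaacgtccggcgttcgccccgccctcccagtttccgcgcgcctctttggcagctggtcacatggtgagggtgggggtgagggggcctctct
CDKN1B: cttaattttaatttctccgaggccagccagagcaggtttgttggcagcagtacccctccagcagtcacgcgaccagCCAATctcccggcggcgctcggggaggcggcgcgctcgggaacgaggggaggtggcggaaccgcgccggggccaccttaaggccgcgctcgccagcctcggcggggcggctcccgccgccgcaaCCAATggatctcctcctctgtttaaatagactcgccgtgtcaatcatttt

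The CDK4 window held 3 E-boxes, which began 216, 196 and 101 bases before the start site. Of 35116 windows of the same length in the table, 6.34% held at least 1 CACGTG, and 28 windows (0.0797%) held 3 or more. Among the other members, CACGTG was found in 2 of the 3 CDKN2C windows. The CDKN1B window held 2 CCAAT matches, which began 174 and 50 bases before the start site, and 32.0% of all windows held at least 1. The share of windows with 2 or more was not counted. CCAAT was also found in windows of CCND3, CDKN2C and CDKN2D. The RBPJ-type motif GTGGGAA (5.43% of all windows) and the FOXO-type motif GTAAACA (2.98%) were in none of the 12 windows. This is a statement about these letters in these windows only, and CCND3 was the only D cyclin among them.

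The deposited values are ratios to each line's own mean in DMSO, so levels, and differences between the lines in DMSO, are lost. The T-lineage identity of the lines could thus not be checked from marker levels. All values below are log2 ratios, and changes are SAHM1 minus DMSO ± limma's standard error over groups of 3 arrays. P-values were adjusted over all genes or all probe sets by Benjamini and Hochberg's method. "Rose" and "fell" are used where the adjusted p was under 0.05, the threshold for a call. Because the values are ratios, the level of one gene cannot be set against that of another. The arrays were not alike in control signals. In HPB-ALL the signal of 18S ribosomal RNA with SAHM1 was 2.19 above that in DMSO, and 1 DMSO array of that line (replicate 1, at 1.05) stood nearer to the SAHM1 arrays (1.35 to 1.89) than to replicates 2 and 3 (-1.01 and -1.65). Treatment and 18S signal thus shifted together in HPB-ALL. A fit with the 18S level as a covariate cannot fully tell them apart there. In KOPT-K1 the 18S shift was -0.26, but hybridization spikes were higher by 0.83 with SAHM1. In HPB-ALL the spike shift was -0.39, with DMSO arrays at -0.44, 0.60 and -0.48. Of 9 T-lineage markers, 1 was called in KOPT-K1 (CD1A at -0.54) and 3 in HPB-ALL (CD3G at 0.71, CD7 at -0.51, LCK at -0.22). Of 9 measured B-cell, myeloid and erythroid markers, MS4A1 was called in KOPT-K1 (0.32), and the values in HPB-ALL lay between -0.16 and 0.06. The part of the spikes and of these markers in the results was not tested, except where a value with the spike level is given.

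In HPB-ALL, CCND2 and CDK4 fell and CDKN1B rose. In KOPT-K1, CDK6 fell and CDKN2D rose, and both of these calls were close to the threshold. The members called in one line were not called in the other. In HPB-ALL 3 of 9 members were called, against 9.34% of all genes. In KOPT-K1 2 of 9 were called against 19.0% of all genes, a share near the background that is no result about these genes. The responses of 4 of 9 members (CCND2, CDK4, CDK6 and CDKN1B) differed between the lines by the test of the difference itself, against 16.8% of all genes. The median change of the 9 members was -0.03 in KOPT-K1 and 0.02 in HPB-ALL, beside medians of 1.99e-05 and -0.02 over all genes.

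**Figure D1:**
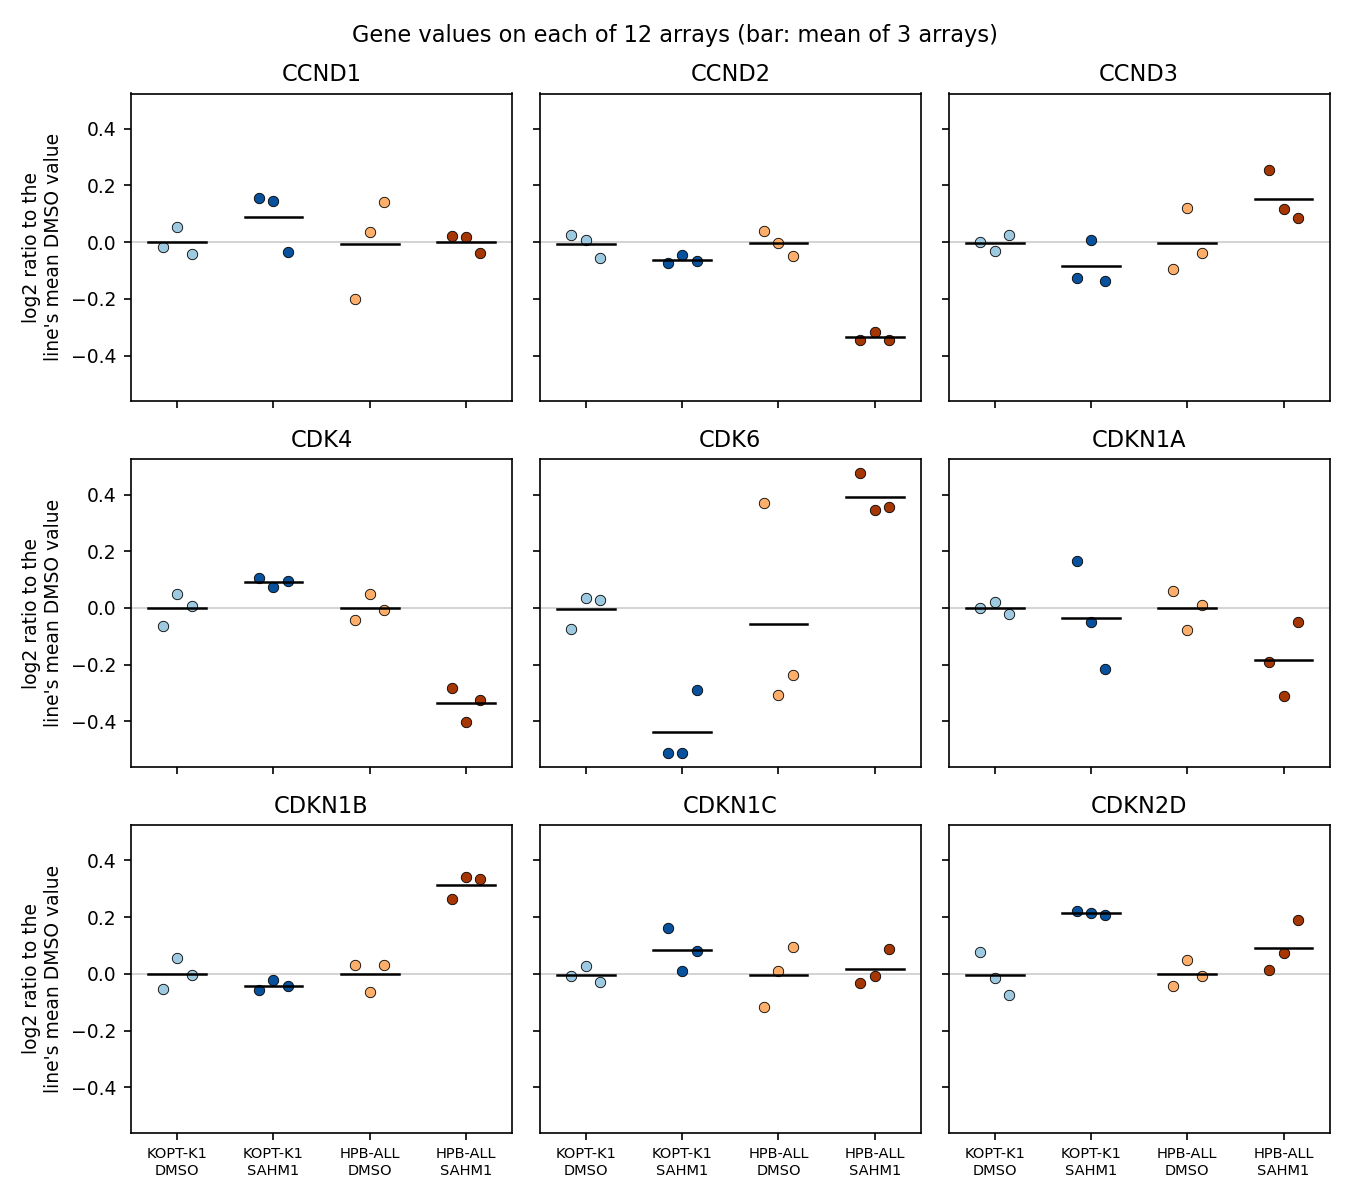
Gene values on each array as the log2 ratio to the line's mean DMSO value (y axis) in the 4 groups (x axis), with 1 point per array and a bar at the mean of 3 arrays. In HPB-ALL the SAHM1 arrays lie below every DMSO array for CCND2 and CDK4 and above them for CDKN1B, while 1 HPB-ALL DMSO array of CDK6 (0.37) lies among the SAHM1 arrays. Of all genes, 29.1% had groups that did not overlap in this line.

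CDK4, the D cyclin kinase with 1 probe set on the array, fell in HPB-ALL. Its values were -0.04, 0.05 and -0.01 on the DMSO arrays of replicates 1, 2 and 3 and -0.28, -0.40 and -0.33 on the SAHM1 arrays. The groups did not overlap, which held for 3 of 9 members in this line against 29.1% of all genes. The change was -0.34 ± 0.06 (limma, adjusted p = 0.0035), a ratio of 0.792. In KOPT-K1 the DMSO arrays stood at -0.06, 0.05 and 0.01 and the SAHM1 arrays at 0.11, 0.08 and 0.09. There every SAHM1 array was higher than every DMSO array, but the change of 0.09 ± 0.06 was not called (adjusted p = 0.298, 95% interval -0.03 to 0.22). Non-overlap held for 3 of 9 members in KOPT-K1 against 35.1% of all genes. The response in HPB-ALL was lower than that in KOPT-K1 by 0.43 on the log2 scale (-0.43 ± 0.08, adjusted p = 0.0043). Adjusted over genes, the fall in HPB-ALL was called without each array in turn (-0.36 to -0.30). Adjusted over all probe sets, the same values were not called without HPB-ALL DMSO replicate 2 or 3 or HPB-ALL SAHM1 replicate 2 or 3 (adjusted p up to 0.0942). With the 18S level as a covariate it was nearly as large but less precise (-0.29 ± 0.10), and neither it (adjusted p = 0.380) nor the difference between lines (-0.38 ± 0.12, adjusted p = 0.146) was called.

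MYC, whose protein binds CACGTG with its partner MAX, was measured by 1 probe set and fell in both lines (KOPT-K1 -0.69 ± 0.07, HPB-ALL -0.65 ± 0.07). The part of MYC in the CDK4 values was not tested. The genes whose values followed CDK4 most closely over the 12 arrays were PMPCA (Pearson r = 0.987), a subunit of the mitochondrial processing peptidase, and the mitochondrial ribosomal protein genes MRPL15 (0.979) and MRPL24 (0.975). The 12 arrays share 4 groups, so these correlations describe the pattern only. MRPL24 stood at 0.22 ± 0.09 in KOPT-K1 and -0.61 ± 0.09 in HPB-ALL, and PMPCA at 0.14 ± 0.08 and -0.47 ± 0.08.

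CDK6, the other D cyclin kinase, was measured by 7 probe sets, and their mean fell in KOPT-K1 and was not called in HPB-ALL, where its sign depended on the processing. In KOPT-K1 the DMSO arrays stood at -0.07, 0.04 and 0.03 and the SAHM1 arrays at -0.51, -0.51 and -0.29. All SAHM1 arrays were lower, and the gene fell by 0.43 ± 0.14 (-0.43, adjusted p = 0.0485). In HPB-ALL the DMSO arrays were at 0.37, -0.31 and -0.24 and the SAHM1 arrays at 0.47, 0.35 and 0.36. The groups overlapped through DMSO replicate 1, and the change of 0.45 ± 0.14 was not called (adjusted p = 0.0667, 95% interval 0.14 to 0.75). The difference between the lines was 0.88 ± 0.20 (adjusted p = 0.0102) and was called without each array in turn, with values from 0.76 to 1.10.

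The 18S signal and CDK6 were high on the same arrays of HPB-ALL. DMSO replicate 1 of HPB-ALL, the array of that group with high 18S signal, was also the one with high CDK6. Without it the CDK6 change in HPB-ALL was 0.66 ± 0.08 and was called (adjusted p = 7.62e-04). With the 18S level as a covariate, CDK6 in HPB-ALL turned to -0.08 ± 0.14 (adjusted p = 0.964), and the difference between lines was 0.29 ± 0.17 (adjusted p = 0.446). The KOPT-K1 fall was nearly as large with this covariate (-0.37 ± 0.09, adjusted p = 0.0134). It was not called with the spike level added (-0.28 ± 0.12, adjusted p = 0.252), with the median of probe sets in place of the mean (-0.44 ± 0.19, adjusted p = 0.127), under quantile normalization (-0.26 ± 0.17) or with each array centred on its median (-0.42 ± 0.14). Nor was it called without any 1 of KOPT-K1 DMSO replicates 1 to 3, KOPT-K1 SAHM1 replicates 1 and 2 or HPB-ALL SAHM1 replicates 1 to 3. In those fits values ran from -0.47 to -0.40 and the adjusted p reached 0.127. The fall was called with KOPT-K1 fitted alone (-0.43 ± 0.08, adjusted p = 0.0164) and with same-numbered arrays as a block (-0.43 ± 0.11, adjusted p = 0.0282). It was also called without HPB-ALL DMSO replicate 1 (-0.43 ± 0.07, adjusted p = 0.0026). Leaving out an HPB-ALL array changed the standard error of the KOPT-K1 value and not the value.

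**Figure D2:**
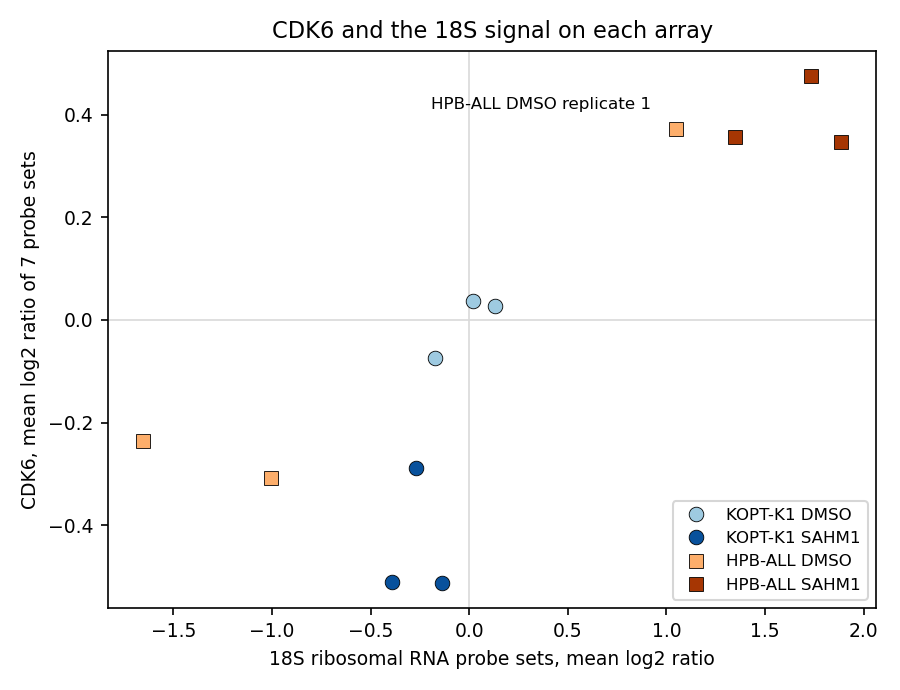
CDK6 as the mean log2 ratio of 7 probe sets (y axis) against the mean log2 ratio of the 18S ribosomal RNA probe sets (x axis), with 1 point for each of 12 arrays and both values relative to the line's DMSO mean. HPB-ALL DMSO replicate 1 lies with the SAHM1 arrays of its line on both axes, and the HPB-ALL change in CDK6 turns from 0.45 to -0.08 once the 18S level is a covariate.

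The 7 CDK6 probe sets did not move alike. In HPB-ALL 4 of them (207143_at, 231198_at, 235287_at and 243000_at) stood between 0.62 and 0.83, with DMSO replicate 1 at 0.56 to 0.75 and replicates 2 and 3 at -0.61 to -0.26. The fifth, 224851_at, was at 0.34 ± 0.10 (adjusted p = 0.0642), and its SAHM1 arrays (0.38, 0.34 and 0.29) lay above its DMSO arrays (0.19, -0.13 and -0.08). The remaining 2, 224847_at and 224848_at, were at -0.03 ± 0.07 and -0.06 ± 0.07. In KOPT-K1 3 of 7 probe sets fell, 224847_at (-0.26 ± 0.07), 224851_at (-0.38 ± 0.10) and 243000_at (-0.66 ± 0.20), with adjusted p of 0.0274, 0.0205 and 0.0451, where 9.79% of all probe sets fell. In this line 224848_at had the smallest change (-0.08 ± 0.07). Of the 3 calls, that of 224851_at was kept in 10 of 12 fits without 1 array, that of 224847_at in 8 and that of 243000_at in 3. The difference between lines was called for 5 of 7 probe sets, all higher in HPB-ALL, against 8.50% of all probe sets in that direction. The calls of 224851_at, 235287_at and 243000_at held without each array in turn. That of 207143_at held in 3 of 12 such fits and that of 231198_at in 1. Only the 3 probe sets named first were called without KOPT-K1 DMSO replicate 2 or 3, KOPT-K1 SAHM1 replicate 1 or 2, HPB-ALL DMSO replicate 2 or 3, or any 1 HPB-ALL SAHM1 array. None of the 5 was called with the 18S level as a covariate or under quantile normalization. For 224847_at and 224848_at it was not called (0.22 ± 0.10 and 0.03 ± 0.10). Where in the transcript each probe set lies was not analysed here. RORA (Pearson r = 0.995 over 12 arrays), KMT2C (0.993) and RBM39 (0.992) had the values most like CDK6. RBM39, a splicing factor, stood at -0.36 ± 0.11 in KOPT-K1 and 0.42 ± 0.11 in HPB-ALL.

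**Figure D3:**
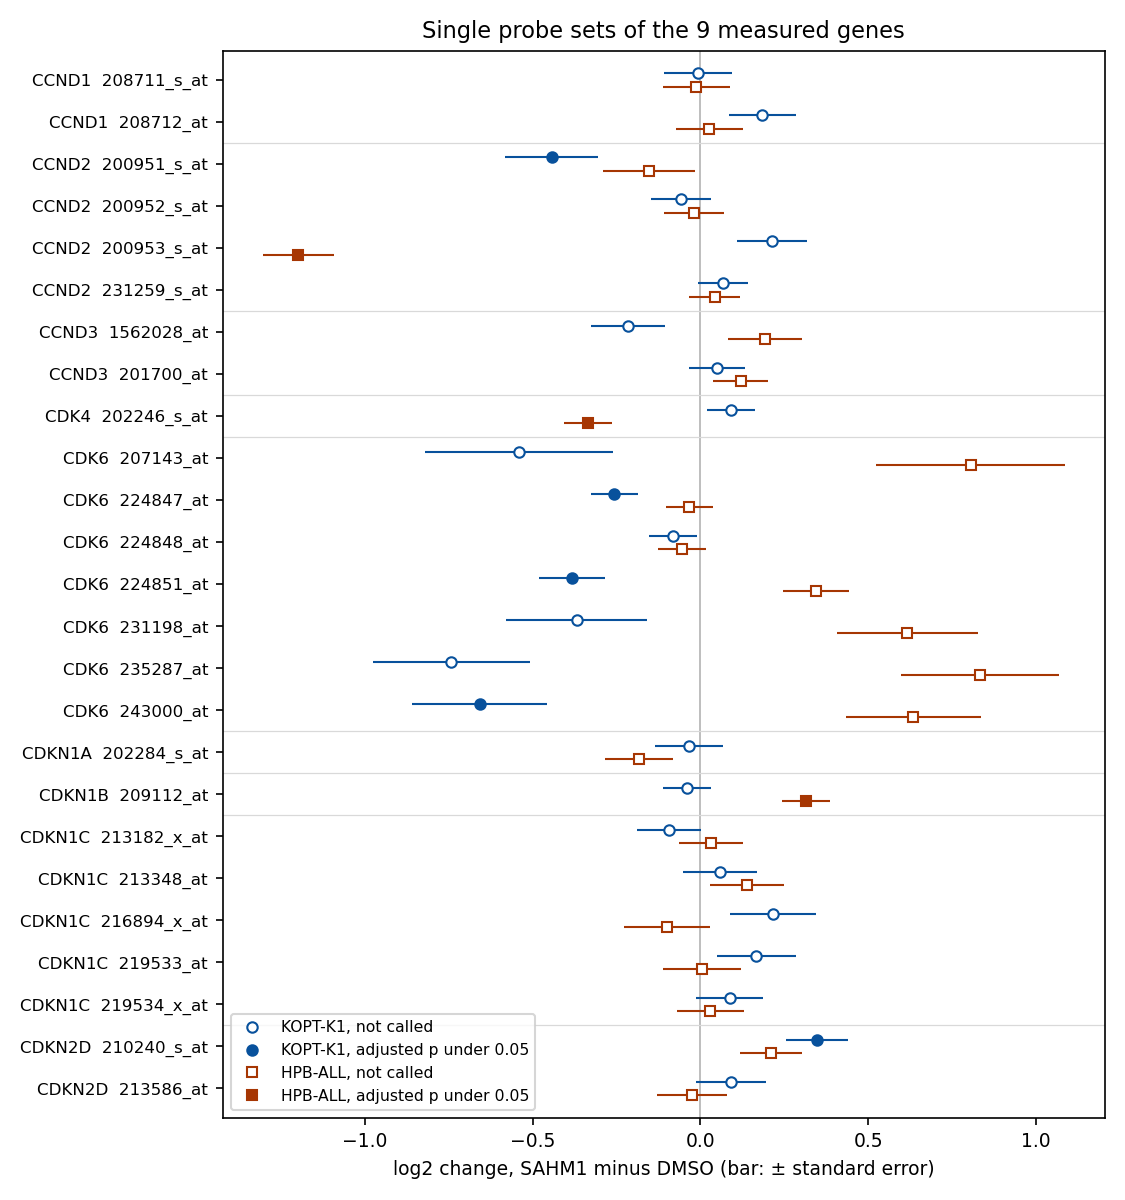
Log2 change (SAHM1 minus DMSO, x axis) of the 25 probe sets of 9 genes (y axis) in KOPT-K1 (circles) and HPB-ALL (squares), with bars of ± 1 standard error and filled symbols for adjusted p under 0.05. CCND2 in HPB-ALL rests on 1 of 4 probe sets at -1.20, and CDK6 probe sets spread from -0.06 to 0.83 in HPB-ALL, where the gene's mean turns below 0 once the 18S level is a covariate.

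Over single probe sets, 5 of 25 were called in KOPT-K1 (14.6% of all probe sets) and 3 of 25 in HPB-ALL (5.15%). The largest change of any member probe set was in CCND2, the D cyclin whose probe sets disagreed most. The probe set 200953_s_at had ratios of 0.949, 1.01 and 1.04 on the DMSO arrays of HPB-ALL and 0.437, 0.414 and 0.456 on the SAHM1 arrays. Its signal with SAHM1 was thus under 0.5 of the DMSO mean on every array, a change of -1.20 ± 0.11 (adjusted p = 9.84e-05). The other 3 CCND2 probe sets stood at -0.15 ± 0.14, -0.02 ± 0.09 and 0.04 ± 0.08 in HPB-ALL. With ratios alone, it cannot be seen which of the 4 had signal above background. In KOPT-K1 200953_s_at was at 0.21 ± 0.11 (adjusted p = 0.203), and the difference between lines was -1.41 ± 0.15. Another probe set, 200951_s_at, fell in KOPT-K1 (-0.44 ± 0.14, adjusted p = 0.0475), with DMSO arrays at 0.21, -0.31 and 0.05 and SAHM1 arrays at -0.54, -0.32 and -0.51. That call was kept in 0 of 6 other settings and in 3 of 12 fits without 1 array (without KOPT-K1 DMSO replicate 2, HPB-ALL DMSO replicate 1 or HPB-ALL DMSO replicate 3), with an adjusted p of up to 0.175.

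As the mean of 4 probe sets, CCND2 stood at 0.04, -0.0032 and -0.05 on the DMSO arrays of HPB-ALL and at -0.34, -0.32 and -0.35 with SAHM1. The groups did not overlap, and the gene fell by 0.33 ± 0.05 (-0.33, adjusted p = 0.0024). This value averages 1 probe set that was called with 3 that were not. With the median of the probe sets it was -0.09 ± 0.06 (adjusted p = 0.473). In KOPT-K1 the gene was at -0.05 ± 0.05 (adjusted p = 0.516), and the difference between lines was -0.28 ± 0.08 (adjusted p = 0.0254). That difference was not called without KOPT-K1 DMSO replicate 3 or HPB-ALL SAHM1 replicates 1 or 3 (-0.30 to -0.25 without any 1 array, adjusted p up to 0.0600). It was kept in 1 of 6 other settings. With the median of the probe sets the difference was -0.09 ± 0.09 (adjusted p = 0.559), and under quantile normalization -0.29 ± 0.09 (adjusted p = 0.149). With the 18S level as a covariate, 200953_s_at in HPB-ALL was nearly as large (-1.09 ± 0.18) but was not called (adjusted p = 0.0728). Its difference between lines was called with this covariate (-1.29 ± 0.22, adjusted p = 0.0236), but not with the spike level added.

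CCND1 and CCND3 passed the test in neither line. CCND3, the D cyclin that developing thymocytes depend on, was at -0.08 ± 0.07 in KOPT-K1 (adjusted p = 0.464, 95% interval -0.24 to 0.07) and at 0.16 ± 0.07 in HPB-ALL (adjusted p = 0.236, interval -0.0026 to 0.31). Its HPB-ALL arrays ran from -0.10 to 0.12 in DMSO and from 0.09 to 0.25 with SAHM1, so the groups overlapped. Of its 2 probe sets, 1562028_at stood at -0.22 in KOPT-K1 against 0.19 in HPB-ALL, and 201700_at at 0.05 against 0.12. CCND1, the D cyclin of many epithelial cells, was at 0.09 ± 0.09 and 0.0076 ± 0.09. The 95% interval was -0.10 to 0.27 for KOPT-K1 and -0.18 to 0.19 for HPB-ALL.

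CDKN1B, which encodes p27, rose in HPB-ALL. Its DMSO arrays stood at 0.03, -0.07 and 0.03 and its SAHM1 arrays at 0.27, 0.34 and 0.34. All SAHM1 arrays were higher, and the change of 0.31 ± 0.06 (adjusted p = 0.0048) is a ratio of 1.24, nearly the size of the CDK4 fall in the other direction. In KOPT-K1 the DMSO arrays were at -0.05, 0.06 and -0.01 and the SAHM1 arrays at -0.06, -0.02 and -0.04. The groups overlapped, and the change was -0.04 ± 0.06 (adjusted p = 0.669, 95% interval -0.16 to 0.08). The difference between lines was 0.36 ± 0.08 (adjusted p = 0.0107). Adjusted over genes, the rise in HPB-ALL was called without each array in turn (0.28 to 0.34). Adjusted over all probe sets, it was not called without HPB-ALL DMSO replicate 2 or 3 or any 1 HPB-ALL SAHM1 array (adjusted p up to 0.103), and the difference between lines was called only without KOPT-K1 DMSO replicate 1 or HPB-ALL DMSO replicate 1 among the 12 fits that left out 1 array. With the 18S level as a covariate it was 0.29 ± 0.10 (adjusted p = 0.389), and under quantile normalization 0.25 ± 0.07 (adjusted p = 0.0885).

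CDKN2D, which encodes the INK4 inhibitor p19, rose in KOPT-K1. The DMSO arrays stood at 0.08, -0.02 and -0.08 and the SAHM1 arrays at 0.22, 0.22 and 0.21. All SAHM1 arrays were higher, and the change was 0.22 ± 0.06 (adjusted p = 0.0318). It came from 1 of 2 probe sets: 210240_s_at rose (0.35 ± 0.09, adjusted p = 0.0254), and 213586_at was at 0.09 ± 0.10. The call was lost without KOPT-K1 DMSO replicate 2 or 3 or any 1 of the 3 KOPT-K1 SAHM1 arrays (0.18 to 0.26 without any 1 array, adjusted p up to 0.109). It was also lost with KOPT-K1 fitted alone (adjusted p = 0.0683) and with same-numbered arrays as a block (0.0615). The same held with the 18S and spike levels as covariates (0.269) and under quantile normalization. Without probe sets ending in _x_at or _s_at the change was 0.09 ± 0.10 and was not called (adjusted p = 0.585). In HPB-ALL 210240_s_at was at 0.21 ± 0.09 (adjusted p = 0.254), with SAHM1 arrays at 0.11, 0.11 and 0.41 and DMSO arrays at 0.01, -0.03 and 0.02. The gene as a whole was at 0.09 ± 0.06 there (adjusted p = 0.458). Its difference between lines was -0.13 ± 0.09 (adjusted p = 0.376, 95% interval -0.32 to 0.07), so a CDKN2D response that differs between the lines was not shown.

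CDKN1A and CDKN1C passed no test. CDKN1A, the inhibitor p21, was at -0.03 ± 0.09 in KOPT-K1, where its SAHM1 arrays spread from -0.21 to 0.16 around DMSO arrays within -0.02 and 0.02. In HPB-ALL it was at -0.18 ± 0.09 (adjusted p = 0.281, 95% interval -0.38 to 0.02), with SAHM1 arrays at -0.19, -0.31 and -0.05 and DMSO arrays at 0.06, -0.08 and 0.01. The lowest DMSO array of HPB-ALL thus lay below the highest SAHM1 array. CDKN1C, the imprinted inhibitor p57, was at 0.09 ± 0.07 and 0.02 ± 0.07 as the mean of 5 probe sets, whose changes lay within -0.09 and 0.22 for KOPT-K1 and within -0.10 and 0.14 for HPB-ALL.

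The other genes of the G1 pathway, in 4 lists of 53 measured genes, were called in 17 cases in KOPT-K1, 5 higher and 12 lower, and in 11 cases in HPB-ALL, 5 higher and 6 lower. The shares of all genes called were 5.85% higher and 13.2% lower in KOPT-K1 and 4.96% higher and 4.38% lower in HPB-ALL. The median change of the 53 genes was -0.10 in KOPT-K1 and -0.0083 in HPB-ALL. In HPB-ALL the count was 1 with the 18S level as a covariate. It was 6 without DMSO replicate 3, and 7 without DMSO replicate 2 or without SAHM1 replicate 2 or 3. In KOPT-K1 it was 4 with the spike level added to the 18S level and 3 under quantile normalization.

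Among the 13 genes of the RB and E2F family, 3 fell in KOPT-K1. They were RB1 (-0.36 ± 0.08), the target of the D cyclin kinases, its relative RBL1 (-0.28 ± 0.09) and the activating factor E2F3 (-0.37 ± 0.08). For RBL1, 1 of 4 probe sets was called. RBL2 was not called (-0.17 ± 0.08). In HPB-ALL E2F1 fell (-0.27 ± 0.08, adjusted p = 0.044). E2F8 (0.47 ± 0.08, adjusted p = 0.0030), a repressive E2F of late cycle, and E2F2 (0.34 ± 0.10, adjusted p = 0.045) rose there. So did the E2F partner TFDP2 (0.25 ± 0.06, adjusted p = 0.018). The E2F1 and E2F2 calls were close to the threshold. Taken singly, 0 of 2 E2F1 probe sets and 1 of 4 TFDP2 probe sets were called. The difference between lines was called for 5 of these 13 genes, all higher in HPB-ALL: E2F8, E2F3, RBL1, TFDP2 and E2F2 (0.31 to 0.59). Of all genes, 11.4% were called in that direction and 5.41% in the other. Over all 53 genes of the 4 lists, 10 were called higher in HPB-ALL and 5 lower. The counts were 0 higher and 1 lower among the 11 genes of the cyclin E, cyclin A and CDK2 list. They were 3 and 3 among the 15 turnover genes, and 2 and 1 among the 14 measured INK4 genes and upstream regulators. For RB1 the difference was not called (0.27 ± 0.11, adjusted p = 0.110).

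Of the 11 genes for cyclins E and A, CDK2 and the CDK-activating kinase, 3 rose in KOPT-K1 and 1 in HPB-ALL. CCNA2, the cyclin of S phase and G2, rose in both lines (0.30 ± 0.06 and 0.25 ± 0.06). Taken singly, 1 of its 2 probe sets was called in KOPT-K1 and 0 of 2 in HPB-ALL. CKS2 (0.63 ± 0.07) and CKS1B (0.22 ± 0.06), small CDK-binding subunits, rose in KOPT-K1. Adjusted over all probe sets, the single CKS1B probe set was not called there. CKS1B was at 0.17 ± 0.06 in HPB-ALL (adjusted p = 0.0861). CDK2, the partner of cyclin E, was at -0.14 ± 0.06 and 0.12 ± 0.06, and CCNH, the cyclin of the CDK-activating kinase, at 0.14 ± 0.07 in HPB-ALL, with no call.

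Of 15 ubiquitin ligase and turnover genes, 2 rose and 5 fell in KOPT-K1, and 2 fell in HPB-ALL. DDB1, an adaptor of CUL4 ligases, fell in both (-0.24 ± 0.06 and -0.29 ± 0.06). CUL4B (-0.46 ± 0.06) and DTL (-0.31 ± 0.05), parts of the ligase that degrades p21 in S phase, fell in KOPT-K1, and RBX1, a RING subunit of cullin ligases, rose (0.31 ± 0.07). FBXO31, a receptor for cyclin D1, fell in HPB-ALL (-0.36 ± 0.07). SKP2, the receptor that targets p27, was looked at outside the naming rule for its tie to CDKN1B. It was at -0.17 ± 0.08 in KOPT-K1 and -0.12 ± 0.08 in HPB-ALL, with no call.

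Of 14 measured INK4 genes and upstream regulators, 4 fell in KOPT-K1, and 3 fell and 1 rose in HPB-ALL. Beside MYC, the NOTCH-induced repressor HES1 fell in both lines (-0.69 ± 0.05 and -0.59 ± 0.05), with single probe sets from -1.09 to -0.04 and from -1.01 to -0.08. FOXO3 (-0.37 ± 0.07), a factor that activates CDKN1B, and the TGF-beta receptor gene TGFBR1 (-0.26 ± 0.06) fell in KOPT-K1. The 3 TGFBR1 probe sets ran from -0.52 to 0.25 there, with 1 called. KLF2, a quiescence factor of T cells, fell in HPB-ALL (-0.43 ± 0.07, probe sets at -0.95 and 0.09). MDM2, a ubiquitin ligase, rose there (0.27 ± 0.07) with 1 of 10 probe sets called. The INK4 genes CDKN2A and CDKN2B, also outside the naming rule, were not called. CDKN2A was at -0.11 ± 0.07 and -0.05 ± 0.07 in KOPT-K1 and HPB-ALL, and CDKN2B at -0.03 ± 0.06 and -0.11 ± 0.06.

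**Figure D4:**
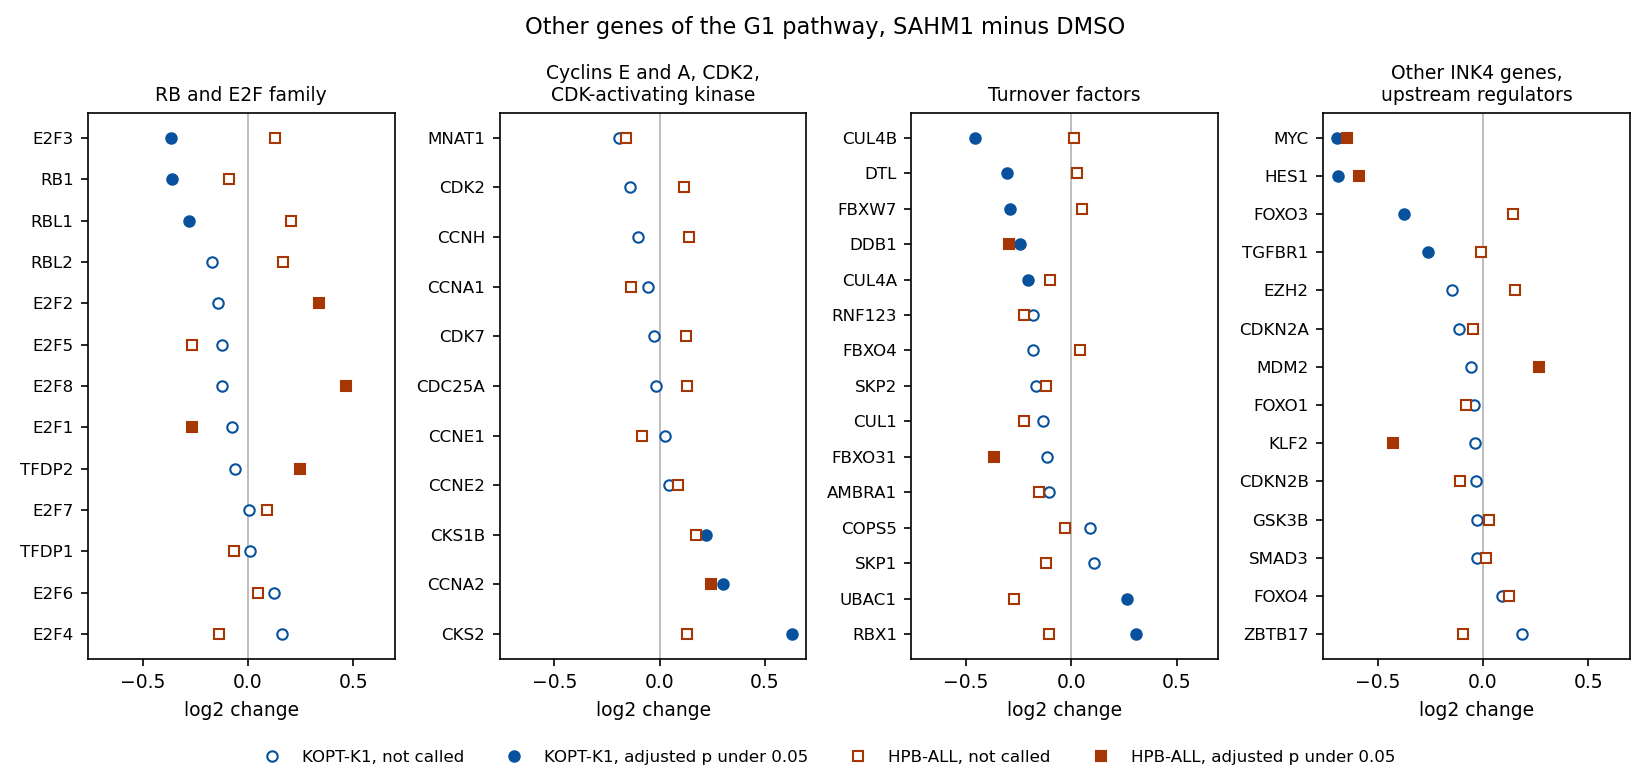
Log2 change (SAHM1 minus DMSO, x axis) of 53 other genes of the G1 pathway (y axis) in 4 lists, in KOPT-K1 (circles) and HPB-ALL (squares), with filled symbols for adjusted p under 0.05. MYC and HES1 lie lowest in both lines, and E2F3 and CUL4B are called lower in KOPT-K1 and differ between the lines, while in HPB-ALL 1 of 53 genes was called once the 18S level was a covariate.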

How the data were processed

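RNA from 12 cultures was hybridised to Affymetrix arrays. Per the submitters' processing notes the authors used RMA (background correction, normalization, probe summary), whose version is not given in the sources used here. What was deposited is a linear ratio: in 54675 of 54675 probe sets the DMSO arrays of each line averaged 1 within 1e-06. The deposited ratios were analysed as log2 without a pseudocount, and no filter on low values was possible. Probe sets with 1 symbol (41097) were averaged per gene; 1801 with several symbols and 11777 not listed were not used to name genes.

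limma 3.58.1 (R 4.3.3) was run on all 12 arrays together with 4 group terms (8 residual degrees of freedom), over 19775 genes and over 54675 probe sets. Precision is limited by the number of arrays (median standard error 0.08). Named genes were all members, up to 4 genes per G1 list and line with the smallest p, and the 3 genes most correlated with each of the 2 members that changed most. List entries without a probe set of their own are not reported here. Members, lists and rules were chosen with earlier results of these data known. Same-numbered DMSO and SAHM1 arrays did not deviate together (correlations from -0.05 to 0.07), so the numbers were not taken as pairs. Alternatives are in the closing section.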

Additional observations from a re-analysis of the deposited data

Results flagged for a closer look

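The response differed between the lines for 4 members by limma's interaction contrast, HPB-ALL minus KOPT-K1. The difference was -0.28 ± 0.08 for CCND2, -0.43 ± 0.08 for CDK4, 0.88 ± 0.20 for CDK6 and 0.36 ± 0.08 for CDKN1B. For CDK4 and CDKN1B every SAHM1 array of HPB-ALL lay beyond its DMSO arrays. Such non-overlap held for 3 of 9 members in that line, against 29.1% of all genes. The CCND2 difference rested on 1 of 4 probe sets. For CDK6 the changes behind the difference were of similar size, 0.45 in HPB-ALL, where the arrays overlapped and the change was not called, and -0.43 in KOPT-K1. With a covariate for the 18S level these differences were -0.34, -0.38, 0.29 and 0.32, and none was called.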

How the results depend on the processing

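Counts of called members, member probe sets and G1 genes changed with the processing. Quantile normalization left 136 called genes in KOPT-K1 and 417 in HPB-ALL, and 211 for the difference between lines. It left 0 members in KOPT-K1 and 0 for the difference, 0 and 1 member probe sets and 3 and 5 G1 genes in the 2 lines. With a covariate for the 18S level the HPB-ALL counts were 52 genes, 0 members, 0 member probe sets and 1 G1 gene, and those for the difference 324 genes and 0 members. With the spike level added, 597, 39 and 68 genes, 0 members in each comparison, 0 member probe sets in each line, and 4 and 1 G1 genes were called. At an unadjusted limma p under 0.05 these zero counts were 0 to 7. When probe sets ending in _x_at or _s_at were left out, 2498 and 1019 genes, 0 and 1 members (2 for the difference), 1 member probe set in HPB-ALL, and 5 and 3 G1 genes were called, over 6 members and 38 G1 genes. Median centring left 1 member and 3 member probe sets in KOPT-K1. Fitting each line alone left 1 member in KOPT-K1 and 1 probe set in HPB-ALL, and the median of probe sets 1 member in KOPT-K1. With the replicate block, 1 member in KOPT-K1 and 7 G1 genes in HPB-ALL were called, 4 members in HPB-ALL (CDK6 among them, adjusted p = 0.0436) and 3 for the difference (CCND2 left out, adjusted p = 0.0727). With both covariates, the difference between lines turned from 1.35 to -0.14 for CDK6 probe set 207143_at and from 0.99 to -0.20 for 231198_at.

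Leaving out 1 array at a time gave 0 to 2 members and 0 to 7 member probe sets in KOPT-K1, and 3 to 4 members, 1 to 8 member probe sets, 6 to 13 G1 genes and 913 to 2012 genes in HPB-ALL. The most calls in HPB-ALL came without DMSO replicate 1. Adjusted over genes, CCND2, CDK4 and CDKN1B in HPB-ALL were called without each of the 12 arrays. Adjusted over probe sets, the single probe sets of CDK4 and CDKN1B were called in 8 and 7 of these 12 fits, and in neither case with the line fitted alone or with the replicate block. The cause of these changes was not tested. Signal over background is lost in the ratios, so a probe set without signal cannot be told from an unchanged one.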
